A study of Mus musculus with 8 samples.

Results

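Ciliated ependymal cells form the single layer of epithelium that lines the ventricles of the brain. They were taken here from single-cell RNA-sequencing of mouse brains with and without a GL261 glioma, as 65 of 7861 cells. A cell was a member if 6 genes together (Foxj1, Ccdc153, Tmem212, Rarres2, Dynlrb2 and Rsph1) gave at least 30 of every 10000 of its unique molecular identifiers (UMIs, each standing for 1 counted messenger RNA molecule), with at least 3 of the 6 detected. The cells searched were the 1000 barcodes with the most UMIs in each library that had at least 500 genes. The levels of these 6 genes therefore describe the choice of cells and are not a finding, and the same holds for any gene that sets these cells apart from the rest.

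The study compared wild type (WT, Irg1/Acod1 +/+) with Acod1 knock-out mice (KO, Irg1/Acod1 -/-), the latter in which a cassette is inserted after exon 3 and before exon 5 of the gene for aconitate decarboxylase 1, the enzyme that makes itaconate in myeloid cells. The labels give all mice as C57BL/6, the study's methods as C57BL/6N. All cells passed through the same dissociation and removal of myelin, and the age of the mice is not given in the sources used here. There were 8 Drop-seq libraries, 1 for each genotype in the naïve, early, intermediate and late condition. Naïve libraries came from brains without a tumour and name 2 mice each in their titles. Each tumour-bearing library came from 1 mouse implanted with 500 GL261 cells (a mouse glioma line), from which the tumour core was dissected at a volume of 5 to 10 mm3 (early), 20 to 25 mm3 (intermediate) or 30 to 35 mm3 (late). Naïve and tumour-bearing libraries thus differ in the piece of tissue as well as in the tumour, and these cannot be told apart. The WT early and the KO intermediate mouse were female and the other tumour-bearing mice male, so that genotype and sex cannot be told apart at those stages. The members held Xist UMIs in exactly those 2 libraries, with 8 and 4 UMIs. No source used here gives the sex of naïve mice. Members of both naïve libraries held UMIs of the Y-linked Ddx3y (19 in WT and 9 in KO) and 0 of Xist, so that sex and tumour cannot be told apart where WT early, or WT early and KO intermediate, are the only tumour-bearing libraries.

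Ependymal cells carry tufts of motile cilia whose beating moves the cerebrospinal fluid along the ventricle wall. A motile cilium is built on a ring of microtubule doublets, the axoneme. Outer and inner dynein arms slide the doublets against each other, radial spokes and a central pair of microtubules coordinate the stroke, nexin links limit the sliding, and intraflagellar transport carries the parts to the tip. The genes for these parts are switched on together by the transcription factor Foxj1 and by factors of the RFX family, in ependyma as in airway and oviduct. Ependymal cells descend from radial glia and share several genes with astrocytes. The choroid plexus epithelium continues the same layer, but secretes the fluid.

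Per library, between 2885345 UMIs (KO naïve) and 9950713 UMIs (WT intermediate) were deposited, and 892 to 1000 cells were kept. With 1 library in each group, p-values measure the spread between libraries and not between repeats of a group. The members numbered 35 in WT naïve, 18 in KO naïve, 7 in WT early, 1 in WT intermediate, 3 in KO intermediate and 1 in KO late, and 0 in KO early and WT late. Their median depth was 3897 UMIs and 2094 genes per cell, against 1615 UMIs in 770 astrocytes, 2536 in 94 choroid plexus epithelial cells and 2670 in 79 mural cells, which were picked by a rule of the same form from other genes. Of the members, 49 had all 6 genes detected, 11 had 5, 3 had 4 and 2 had 3. The marker score had a lowest value of 34.8, a median of 116.5 and a highest value of 213 per 10000 UMIs. Just inside the limit lay cells at 34.8 and 41.3, and just outside, among cells with at least 3 of the genes, lay cells at 29.7 and 28.3. None of the member barcodes occurred in another library. The astrocyte rule was passed by 16 members as well, the choroid plexus and the mural rule by 0. Rules of the same form for other cell types were passed by 4 members, all from naïve libraries, 3 for oligodendrocytes and 2 for microglia.

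Among the rule genes, Ccdc153, a coiled-coil protein of motile cilia, was counted at 3217 CPM (UMIs of a gene in every 1000000 UMIs of the summed cells), with an exact 95% Poisson interval of 3037 to 3405. The gene occupies bases 44240676 to 44247306 of chromosome 9 (GRCm38, plus strand). By library its level was 3412 CPM in WT naïve, 2861 in KO naïve, 3613 in WT early, 3439 in WT intermediate, 2355 in KO intermediate and 1949 in KO late. Rarres2, which encodes the secreted chemoattractant chemerin, stood at 2916 CPM, Tmem212 at 1809, the radial spoke head gene Rsph1 at 1680, the dynein light chain gene Dynlrb2 at 1177 and Foxj1 at 779 CPM. The gene of Foxj1 occupies bases 116330704 to 116335399 of chromosome 11 (minus strand), and its level was between 727 and 912 CPM in all libraries with more than 1 member. Rsph1 was at 1786 CPM in WT naïve and 1775 in KO naïve. It was lower in each tumour-bearing library, at 1430 CPM in WT early, 491 in WT intermediate, 912 in KO intermediate and 600 in KO late (55, 2, 12 and 4 UMIs). Summed, the 6 genes gave between 9420 CPM (KO intermediate) and 12580 CPM (WT early). Dynlrb1, the paralogue of Dynlrb2 that serves cytoplasmic dynein in all cells, was lower in the members (126 CPM) than in astrocytes (204), mural cells (282) and choroid plexus cells (399). The receptors of chemerin, Cmklr1 and Ccrl2, gave 0 UMIs in the members. Intervals of this kind cover counting error only.

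The study used Dbi as the label of a group of cells it called pericytes, with Nnat, Hdc and Kif6 as additional markers. It named a separate group, labelled by Ttr, ependymal cells. The genes of pericytes and other mural cells were therefore read in the members. Dbi, which encodes the acyl-CoA binding protein, was at 11473 CPM in the members, against 2344 in astrocytes, 2162 in choroid plexus cells and 307 in mural cells. Mural genes were low beside mural cells. Of 16 mural genes 9 were detected, their sum was 357 CPM against 15894 CPM in mural cells, and none of the 16 was higher than in all of the compared classes. Each class was itself picked by a marker rule, so that the distance to mural cells is a description. The mural list was at 167 CPM in astrocytes, 97.5 in choroid plexus cells and 327 in all other cells, each below the members. Of the 65 members 45 held a UMI of it. Vtn, Abcc9, Notch3, Cspg4, Anpep, Des and Ndufa4l2 were at 0 UMIs, and Rgs5, at 6688 CPM in mural cells, was at 13.4 CPM. The most abundant gene of the list was Acta2 (151 CPM). Ttr, the transthyretin gene of the choroid plexus, was at 309 CPM in the members and at 146603 CPM in the choroid plexus class, and the choroid plexus list summed to 3093 against 185241 CPM. The astrocyte list summed to 2594 CPM against 30211 CPM in astrocytes, led by the connexin gene Gja1 (664) and the water channel gene Aqp4 (661). Tanycytes, the ependymal cells of the third ventricle floor without tufts of cilia, were represented by 6 of 15 genes with a sum of 360 CPM, and their regulator Rax and the deiodinase gene Dio2 were at 0 UMIs. The plot of gene lists in 4 cell classes shows these sums.

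**Figure D1:**
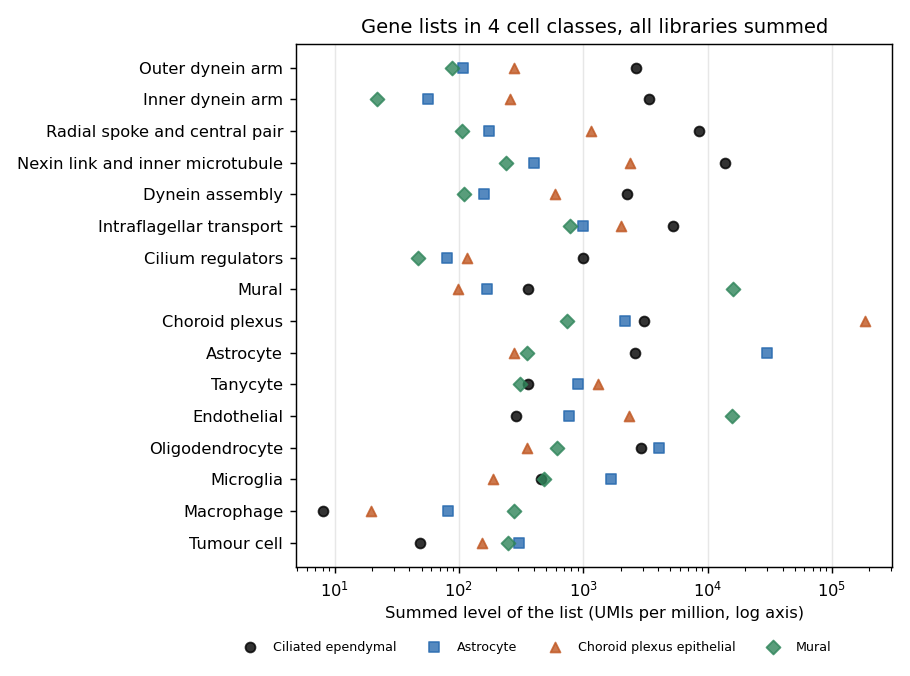
Summed level of gene lists in ciliated ependymal cells (black circles), astrocytes (blue squares), choroid plexus epithelial cells (orange triangles) and mural cells (green diamonds), in CPM over all libraries on a log axis. Ciliated ependymal cells lie to the right of the other classes in each list of cilium parts and far to the left of the mural cells in the mural list (357 against 15894 CPM).

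Beyond the rule genes, lists of cilium parts and cilium-related genes held 230 genes, of which 227 were detected in the members. Of the 230 genes, 205 had a higher level than in all of the 3 compared classes, where 26.7% of all 12240 genes with at least 20 UMIs over these cells had one. This is a property of the choice of cells and was not tested. The 230 genes together made up 63623 CPM in the members, 13679 in choroid plexus cells, 5296 in astrocytes and 3804 in mural cells. By library the sum was 64278 CPM in WT naïve, 61309 in KO naïve, 63707 in WT early, 65095 in WT intermediate, 68677 in KO intermediate and 67776 in KO late. Both libraries with a single member fell within this range.

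The motor parts of the axoneme were represented almost in full. Outer dynein arm genes summed to 2669 CPM with 12 of 13 detected, led by the heavy chain gene Dnah5 (548 CPM, at 0 in choroid plexus and mural cells). All 13 inner arm genes were detected (3349 CPM), and each was higher than in the 3 classes. Dnah12, an inner arm heavy chain, led with 648 CPM and was followed by Dnah6 (478). Of 26 genes of the radial spokes and central pair, 25 were detected (8579 CPM), among them Spef2 (997 CPM), a central pair protein, Rsph4a (898), a spoke head protein, and Cfap54 (658). The list of nexin links and proteins inside the microtubule wall was the richest of the structural lists at 13860 CPM with all 39 genes detected. Enkur (1118 CPM), Ccdc39 (1045), which sets the spacing of the arms, Cfap44 (997) and Mns1 (865) led it. These are 3′ counts of molecules, which do not grow with the length of the transcript, so that levels may be set side by side between genes.

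Genes that build and supply the cilium were present too. All 15 genes of the list for the cytoplasmic assembly of dynein arms were detected (2258 CPM), each higher than in the 3 classes. The highest were 1110004E09Rik (499.9 CPM), Lrrc23 (443), which encodes a radial spoke protein rather than an assembly factor, Lrrc6 (296) and Pih1d2 (245). Intraflagellar transport genes summed to 5246 CPM, led by Ift74 (532), Ift81 (395) and Ift88 (355), parts of the transport train. Here the distance to other classes was smaller, since choroid plexus cells reached 2025 CPM and astrocytes, which bear a primary cilium, 999 CPM. Ak7, an adenylate kinase of motile cilia, stood at 1556 CPM against 8.23 in astrocytes. Tubulin genes were divided. Tuba1a (1908 CPM), Tubb4b (989) and the tubulin-binding Tppp3 (925) exceeded the other classes, whereas 9 of the 19 genes of that list did not. The dynein light chain genes other than Dynlrb2, most of which also serve the cytoplasmic motor, summed to 1779 CPM, below choroid plexus cells (2091).

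The regulators of the cilium were counted at lower levels than its parts. Their 14 genes summed to 994 CPM, led by Myb (266 CPM), a transcription factor of multiciliated cells, Ccdc78 (207), a protein of the organelle from which the many basal bodies arise, and Rfx3 (124). Mcidas, which starts the programme in precursor cells, gave 0 UMIs. Cell cycle genes summed to 86.0 CPM against 383 in astrocytes and 3283 in all other cells, and 17 of the 65 members had any UMI of the list.

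The factors of the RFX family bind DNA through a core motif, for which GTTGCC and its reverse complement GGCAAC were searched on both strands in RefSeq promoters of GRCm38.p6, each from 250 bases before to 50 bases after a start site. A promoter was matched by symbol for 188 of the 230 genes, with 212 promoters in all. Of those, 84 (39.6%) held the core motif, against 4111 of all 32851 promoters (12.5%). By list the share of promoters was 62.5% for dynein assembly (5 of 8), 50% for intraflagellar transport (12 of 24) and 50% for cilium regulators (7 of 14). It was 48.7% for nexin links and inner microtubule proteins (19 of 39), 41.7% for radial spokes and central pair (10 of 24) and 40% for inner arms (4 of 10). Other ciliated cell genes had 34.8% (23 of 66), tubulin genes 17.6% (3 of 17) and outer arms 9.09% (1 of 11). The astrocyte list had 21.4% (3 of 14) and the choroid plexus list 7.69% (1 of 13). For 3 of the rule genes a promoter was matched, and 2 of the 3 held the core motif. A match of letters is a description and does not show that a factor binds there. The following 30 bases are shown because they hold the core motif in the 2 rule genes and in 4 axonemal genes of high level in the members. They are written 5′ to 3′ on the strand of the gene with the core motif in capitals.
Ccdc153, chr9:44240513-44240542, plus strand: ctgagttttccaGTTGCCtggacaacgtgc
Dynlrb2, chr8:116504952-116504981, plus strand: acttcctgcctgGTTGCCtagcaacggggg
Enkur, chr2:21205382-21205411, minus strand: gataaaagccagGTTGCCccgtctcctagc
Cfap44, chr16:44394768-44394797, plus strand: ggacgttgctatGGCAACcgcagtaaacgg
Spef2, chr15:9748843-9748872, minus strand: ccttagcaactgGTTGCCctgggcgacggg
Mns1, chr9:72438532-72438561, plus strand: gcatttttggcgGTTGCCgggacacagctt

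From the start site the core motif printed lay 152 bases before in Ccdc153, 51 before in Dynlrb2, 34 before in Enkur, 19 before in Cfap44, 8 after in Spef2 and 15 after in Mns1, in the order printed. The promoters of Cfap44 and Mns1 each held another core motif, 129 and 72 bases before the start site.

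Outside the lists, the genes with the largest ratio of level to the median of the other classes, among genes with at least 100 UMIs in the members, were Ccdc180, Calb1, Frmpd2, Chek2, 1700001C02Rik, Gm10714, Gm45396, 3300002A11Rik, Adgb and Ccdc121. A class with fewer than 3 UMIs was taken at 3 UMIs. For most of these genes that floor set the median, so that their order is largely that of their level in the members. Calb1, the calcium buffer calbindin known from neurons, was at 403 CPM in 34 of 65 members and at most 6.26 CPM in the classes. Chek2, a kinase of the DNA damage checkpoint, was at 363 CPM in 41 members and at 5.06 CPM in astrocytes. Adgb, the androglobin gene, was at 323 CPM in 45 members. Nnat, an imprinted proteolipid gene on chromosome 2 from 157560078 to 157562522, was at 3792 CPM against 835 in astrocytes, 15.6 in mural cells and 7.09 in choroid plexus cells. Hdc, the histidine decarboxylase that makes histamine, was at 344 CPM in 45 members, with 2.53 CPM in astrocytes and 0 UMIs in mural cells. Unlike the genes with the largest ratios, Hdc is itself counted among the listed cilium-related genes. Kif6, a kinesin, was at 172 CPM in 35 members.

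The genes whose detection over cells was most confined to the members, by a ratio of shares, were Stoml3, Musk, Ccdc33, Frmpd2, Ttc29, Ces1d, Stmnd1, Dnah12, Pih1h3b and BC051019. The ratio was the share of the 65 members with a UMI divided by the share of the 7796 other cells with one, among genes seen in at least 20% of members, with at least 3 other cells taken as the denominator. With this floor, genes seen in fewer than 3 other cells are ordered by their share in the members alone. Stoml3, a stomatin-like membrane protein, was seen in 56.9% of members and in 2 other cells. Musk, the receptor kinase of the neuromuscular junction, was seen in 50.8% of members and in 3 other cells. Foxj1 was less confined. It was seen in 86.2% of members and in 118 other cells (1.51%), and ranked 289 by this measure. Its level in choroid plexus cells was 152 CPM and in astrocytes 11.4 CPM. Shares of this kind depend on depth, and the members were deeper than most other cells.

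Of the radial glial and astroglial identity genes, all 32 were detected but only 6 were higher than in all compared classes. S100b, a calcium-binding protein, stood at 1045 CPM against 433 in astrocytes, and Sox9, a transcription factor of glia, at 645 against 455. Vim, an intermediate filament, stood at 1333 CPM, above astrocytes (398) and below mural cells (1667). Gfap, the filament of reactive astrocytes, was at 34.9 CPM against 130 in astrocytes. Among secreted and transport genes the apolipoprotein gene Apoe led with 5144 CPM, below the 15827 CPM of astrocytes, and was followed by the metallothionein gene Mt1 (4128), the ferritin gene Fth1 (3107) and the chaperone gene Clu (2916). Hsp90aa1, the inducible form of HSP90, was at 5063 CPM against 304 in astrocytes and 1200 in choroid plexus cells, and Hsp90ab1, the constitutive form, at 6367 against 1774 and 2718. Car9, a membrane carbonic anhydrase, was at 167 CPM in 32 members and 1.90 CPM in astrocytes. Genes of oxidative phosphorylation summed to 16150 CPM, below choroid plexus cells (40562) and astrocytes (21580).

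Per 10000 UMIs of a cell, the 230 genes gave a lowest value of 145, a median of 633 and a highest value of 893 over the 65 cells. In astrocytes the median was 45.03 and the highest cell 264, so that the lowest member, a naïve cell, lay within the astrocyte range. Dbi ranged from 15.04 through 114 to 238 per 10000 UMIs with no cell at 0, and Nnat from 0 through 35.7 to 113 with 60 of 65 cells above 0. Thinned to 1000 UMIs per cell, 64 members (1 was shallower) had a median of 751 genes, with a lowest cell at 504 and a highest at 821. In astrocytes thinned the same way the median was 641 (673 cells, 97 left out) and in choroid plexus cells 595 (90 cells, 4 left out). At that depth Ccdc153 was seen in 96.9% of members, Dbi in 98.4%, Nnat in 87.5%, Foxj1 in 51.6%, Spag17, a central pair gene, in 32.8% and Hdc in 17.2%. The unthinned values were 98.5%, 100%, 92.3%, 86.2%, 75.4% and 69.2%. In astrocytes, which should lack them, the thinned shares were 0.892% for Ccdc153, 0.743% for Foxj1 and 0.149% for Spag17. The genes with the highest variance over mean in the thinned members were mt-Rnr2, the mitochondrial large ribosomal RNA, with a lowest value of 12, a median of 52 and a highest value of 359 UMIs. Cst3, Malat1, Jun and Apoe were also among the highest, and none of those named is a gene of the cilium.

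**Figure D2:**
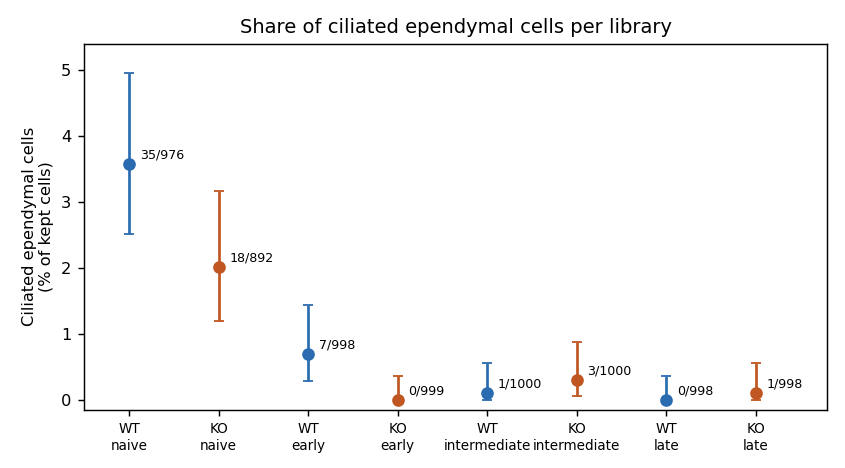
Share of ciliated ependymal cells among the kept cells of each library in percent, WT in blue and KO in orange, with exact 95% binomial intervals and the counts beside each point. Both naïve libraries (3.59% and 2.02%) lie above all 6 tumour-bearing libraries, of which the highest is WT early (0.701%).

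Ciliated ependymal cells made up a smaller share of the cells in tumour cores than in naïve brains. They were 35 of 976 cells in WT naïve (3.59%, exact 95% binomial interval 2.51 to 4.95%), 18 of 892 in KO naïve (2.02%, 1.20 to 3.17%), 7 of 998 in WT early (0.701%, 0.282 to 1.44%), 1 of 1000 in WT intermediate, 3 of 1000 in KO intermediate and 1 of 998 in KO late. In KO early (0 of 999 cells) and WT late (0 of 998) the counts of 0 allow a share of up to 0.3003% and 0.3006%, taken as 3 cells of the total. The mean was 2.80% over the 2 naïve libraries and 0.2003% over the 6 tumour-bearing libraries, a difference of -2.60 percentage points (two-sided exact permutation test, p = 0.0357, the smallest that 28 assignments can give). Without WT naïve the difference was -1.82 and without KO naïve -3.39 percentage points, and the exact permutation p was 0.143 each time, the smallest of 7 assignments. With at least 1000 genes per cell, the filter of the study, the means were 5.18% and 0.257% and the difference was -4.93 percentage points (exact permutation p = 0.0357). Counted over cells outside the tumour, myeloid and lymphocyte marker ranges only, the means were 3.99% and 1.18% and the exact permutation p was 0.0357, with 2.48% in WT early, 2.04% in WT intermediate, 1.91% in KO intermediate, 0.645% in KO late, 0 of 125 cells in KO early and 0 of 148 in WT late beside 4.56% and 3.41% in the naïve libraries. Between genotypes the share was lower in KO than in WT by 0.492 percentage points on average over the 4 conditions (exact permutation test within conditions, p = 0.5), a design in which 4 pairs cannot reach 0.05. The direction was not the same in every pair, since KO was lower at the naïve and early stages and higher at the intermediate and late stages.

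The question of what differs in these cells beside a tumour rests on 12 cells. Only WT early reached 5 cells among the tumour-bearing libraries, so that the comparison with at least 5 cells per library has values but no test. Of 789 genes with a level worth at least 10 UMIs in WT early, either there or in the naïve libraries together, 41 (5.2%) stood at least 2-fold above both naïve libraries and 33 (4.18%) at least 2-fold below both. The balance turned with the filter. With at least 20 UMIs over the 3 libraries, 131 of 3791 genes were higher and 638 lower. With at least 100 UMIs, 8 of 523 were higher and 21 lower. Of the 41 genes, 36 were counted only because of their level in WT early, so that a low naïve level followed from the filter, and no count of gene lists among the 41 is drawn from it. The genes that were counted through their naïve level as well included Ifitm3, Jun, the metallothionein gene Mt2 and Sox2, a transcription factor of neural stem cells (832 CPM against 368 and 310).

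A test was possible with fewer cells per library. With at least 3 cells (WT naïve, KO naïve, WT early and KO intermediate, genotype as a covariate), edgeR called 15 genes higher (0.917% of 1636) and 1 lower (0.0611%) in tumour-bearing libraries at a Benjamini-Hochberg adjusted p of 0.05, from 1 residual degree of freedom. Both tumour-bearing libraries of this fit are the female ones, so that it cannot tell tumour from sex, whereas the fit with at least 1 cell also holds 2 male tumour-bearing mice. With at least 1 cell (6 libraries) it called 14 higher (2.9% of 483) and 3 lower (0.621%). Both fits called 11 genes and either of them 22. A gene of low level in the naïve members could enter these fits only through the tumour-bearing libraries, so that list genes that were tested are not a fair draw of their lists, and counts of them are a description only. The 22 genes held 3 of MHC class I, 8 interferon-induced and 7 immediate early genes, whereas 0 heat shock genes were among them. With at least 1 cell, leaving out WT intermediate gave 4 calls in place of 17, leaving out KO naïve or KO intermediate gave 7 each and leaving out KO late gave 11.

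B2m, H2-K1 and H2-D1, of the MHC class I molecules that present peptides to T cells, rose in tumour-bearing libraries. B2m, the light chain of MHC class I on chromosome 2 from 122147686 to 122153083, was at 121 CPM in WT naïve, 116 in KO naïve, 1378 in WT early, 737 in WT intermediate, 5090 in KO intermediate and 2849 in KO late. Every tumour-bearing library was above both naïve libraries, with counts of 25 and 12 UMIs in the naïve and 53, 3, 67 and 19 in the tumour-bearing libraries. The log2 fold change with at least 3 cells was 4.34 ± 0.50 (SE, edgeR, adjusted p = 0.000469). H2-K1, a classical heavy chain on chromosome 17, was at 107 CPM in each naïve library and at 1144, 246, 1519 and 5098 in WT early, WT intermediate, KO intermediate and KO late, with 44, 1, 20 and 34 UMIs (log2 fold change 3.53 ± 0.43, edgeR, adjusted p = 0.000469). H2-D1, the other classical heavy chain, was at 131 and 126 CPM in the naïve and at 1040, 491, 1216 and 1499 in the tumour-bearing libraries (log2 fold change 3.05 ± 0.43, edgeR, adjusted p = 0.00166). These 3 calls held in every alternative with at least 3 cells that could be fitted, which does not include removal of doublets. With at least 1 cell and doublets removed, the log2 fold change of H2-K1 was 2.53 in place of 3.83 (edgeR, adjusted p = 0.0927) and that of H2-D1 2.00 in place of 2.97 (edgeR, adjusted p = 0.551), while B2m was called. That removal, by the top 5% of scores, took 2 of the 3 KO intermediate members and the only KO late member, so that KO late dropped out. With at least 1 cell, H2-D1 was also lost without KO naïve (edgeR, adjusted p = 0.239), H2-K1 without WT intermediate (edgeR, adjusted p = 0.0726), and all 3 without a filter on low counts. Of the 24 genes of the class I list, 7 passed the filter on low counts with at least 3 cells. The other members of the list tested, such as the chaperone genes Canx (588 CPM naïve, 786 tumour-bearing) and Calr (546 and 754), were not called. The MHC class II list gave 43 UMIs in all members, at 110 CPM in naïve and 144 CPM in tumour-bearing members, and its invariant chain gene Cd74 gave 2 UMIs.

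Interferon-induced genes were the second group with calls. Iigp1, an interferon-inducible GTPase, gave 0 UMIs in the 53 naïve cells and 19, 3, 9 and 14 UMIs in WT early, WT intermediate, KO intermediate and KO late, which is 494, 737, 684 and 2099 CPM. Those UMIs lay in 3 of 7 members of WT early and in 1 of 3 members of KO intermediate. Against a floor of 3 UMIs over the naïve cells (9.69 CPM) the tumour-bearing level of 721 CPM was at least 74.5-fold higher (edgeR with at least 3 cells, adjusted p = 0.000469, not called with DESeq2 at an adjusted p of 0.9995). Irgm1, a GTPase of the same family, was at 9.68 and 0 CPM in the naïve and at 208, 0, 456 and 1200 in the tumour-bearing libraries (edgeR, adjusted p = 0.00462, with DESeq2 0.0968 and without the deepest KO naïve cell, of 37509 UMIs, 0.0968). The UMIs of Irgm1 lay in 2 naïve and 3 tumour-bearing members, the latter from WT early, KO intermediate and KO late. WT intermediate, with its single cell, had no UMI of Irgm1 and did not stand above the naïve libraries for that gene. Ifitm3, a membrane protein that restricts viral entry, was already at 591 and 543 CPM in the naïve libraries and at 2001, 2211, 3267 and 2999 in the tumour-bearing libraries (log2 fold change 2.09 ± 0.40, edgeR, adjusted p = 0.0227). Its adjusted p with edgeR was 0.0592 without a filter on low counts and 0.996 with a marker threshold of 20. Bst2 (tetherin), Gbp7 (a guanylate-binding protein) and Ifi27 were also called with at least 3 cells, and Gbp2 and Ifit3 with at least 1 cell. Bst2, Gbp7 and Ifi27 were lost with DESeq2 and without a filter on low counts, Bst2 also without that cell and Ifi27 also with a marker threshold of 20. Ifit3 was lost in 8 of the 10 alternatives in which it was tested and Gbp2 in 5 of 12, among them DESeq2 and leaving out KO naïve for both. Gbp2 was at 58.1 and 0 CPM in the naïve libraries and at 182, 0, 2735 and 1350 CPM in the tumour-bearing libraries, where the 2 KO libraries were far above the 2 WT libraries. Those KO libraries hold 3 members (intermediate) and 1 member (late), and the difference was not tested. Of the 55 interferon-induced genes of the list, 10 passed the filter with at least 3 cells and 6 were called, all higher, where 0.917% of all genes tested were called higher. Iigp1, Irgm1 and Bst2 (14.5 and 29.1 CPM in the naïve libraries) were among those that passed it through the tumour-bearing libraries. The count of called list genes is therefore a description only.

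**Figure D3:**
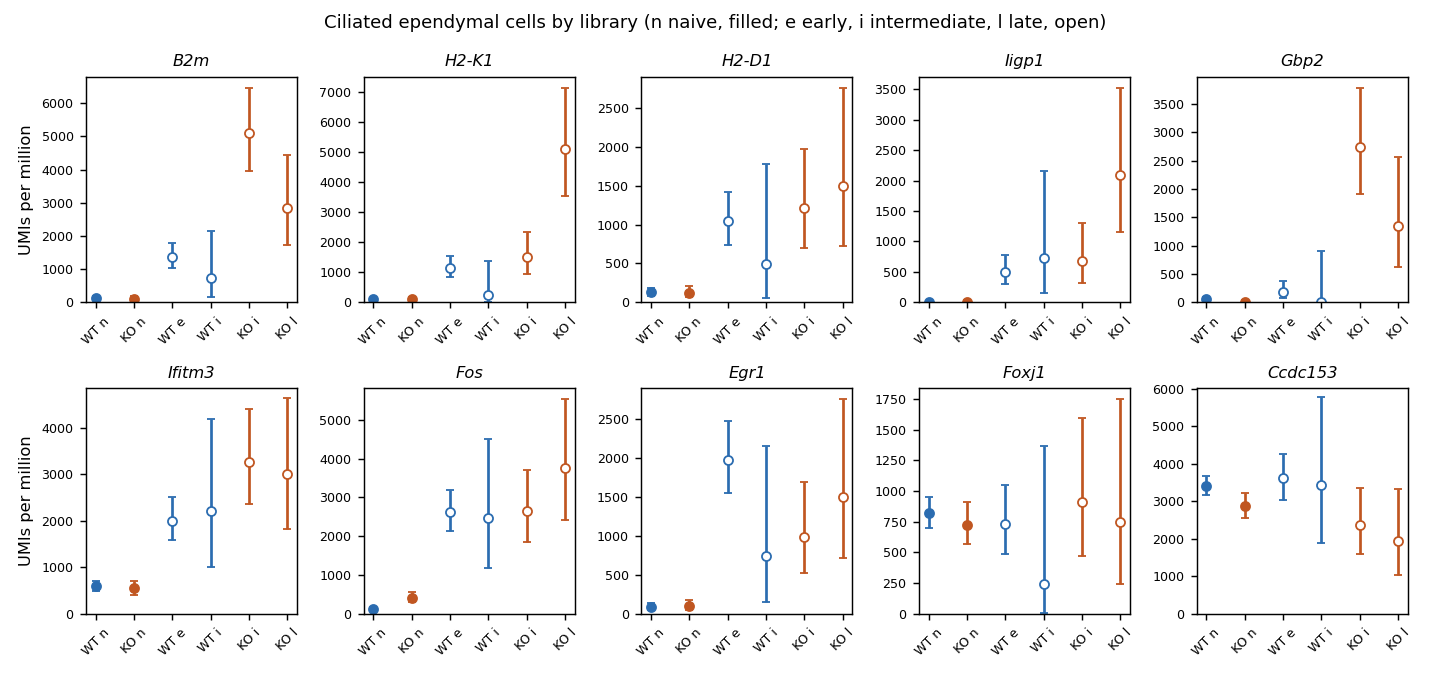
Level of 10 genes in the summed ciliated ependymal cells of each library in CPM with exact 95% Poisson intervals, WT in blue and KO in orange, naïve libraries (n) filled and early (e), intermediate (i) and late (l) libraries open. B2m, H2-D1, Iigp1, Ifitm3, Fos and Egr1 stand above both naïve libraries in all 4 tumour-bearing libraries, whereas Foxj1 and Ccdc153 overlap between them.

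Immediate early genes, which respond to growth factors and to stress within minutes, were the third group. Fos was at 116 CPM in WT naïve, 407 in KO naïve, 2625 in WT early, 2456 in WT intermediate, 2659 in KO intermediate and 3749 in KO late (log2 fold change 3.55 ± 0.51, edgeR, adjusted p = 0.00166, with a marker threshold of 20 0.0689). All 4 tumour-bearing libraries stood above both naïve libraries. Egr1, a zinc finger transcription factor, was at 87.1 and 97.0 CPM in the naïve libraries and at 1975, 737, 988 and 1499 in the tumour-bearing libraries (log2 fold change 4.03 ± 0.48, edgeR, adjusted p = 0.000469). Cyr61, a matricellular protein gene, was at 38.7 and 146 CPM in the naïve and at 1222, 491, 380 and 450 in the tumour-bearing libraries (edgeR, adjusted p = 0.037, with DESeq2 0.0968). Junb, Btg2 and Zfp36 were called with at least 3 cells and Dusp1 with at least 1 cell. The calls of Junb, Btg2 and Zfp36 were lost with DESeq2, without a filter on low counts and with a marker threshold of 20, and that of Dusp1 in 10 of 14 alternatives. Of 31 immediate early genes of the list, 14 passed the filter with at least 3 cells and 6 were called, all higher, beside the same 0.917% of all genes. Egr1 and Junb (14.5 and 97.0 CPM in the naïve libraries) were among those that passed it through the tumour-bearing libraries. This count too is therefore a description only. Mitochondrial transcripts, a measure of cell quality, had a median per 10000 UMIs of 672 in members of WT naïve, 371 in KO naïve, 975 in WT early and 744 in KO intermediate, and stood at 668 and 457 in the single members of WT intermediate and KO late. Their part in these results was not tested. Heat shock genes had a median log2 fold change of 0.29, and 0 of 12 were called in either direction.

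No ciliary gene was called, where calls were few over all genes as well. With at least 3 cells, 139 ciliary genes were tested, 0 were called by edgeR (0.917% of all genes were called higher and 0.0611% lower) and their median log2 fold change was -0.00, while with at least 1 cell 0 of 73 were called and the median was 0.01. Of the rule genes, which are outside these counts and of which 0 were called, Rsph1 was lower in all 4 tumour-bearing than in both naïve libraries. Among the other lists, 0 of 17 radial glial genes, 0 of 22 genes of oxidative phosphorylation and 0 of 3 metallothionein genes were called with at least 3 cells. Metallothioneins summed to 6365 and 7963 CPM in the naïve libraries and to 12320, 8843, 9724 and 4199 CPM in WT early, WT intermediate, KO intermediate and KO late, so that the groups overlapped. Gm12222 and Gm6977, called lower with at least 1 cell, had lower levels in all 4 tumour-bearing than in both naïve libraries, where Gm12222 was at 1530 and 2299 CPM and Gm6977 at 915 and 815 CPM. The call was lost in 8 of 15 alternatives for Gm12222 and in 10 of 15 for Gm6977.

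The 12 tumour-bearing cells were not alike. Per 10000 UMIs, the MHC class I and interferon lists together gave a lowest value of 13.3, a median of 27.98 and a highest value of 210 over the 53 naïve cells. The 12 tumour-bearing cells had a lowest value of 8.46, a median of 120 and a highest value of 504. Above the second highest naïve cell (77.7) lay 7 of the 12, with 288, 152, 146 and 118 in WT early, 123 in WT intermediate, 504 in KO intermediate and 384 in KO late. The other 5 had 64.5, 43.8 and 8.46 in WT early and 68.8 and 39.5 in KO intermediate, so that cells of both kinds came from the same library. The highest naïve cell, from WT naïve with 6145 UMIs, held 18 UMIs of Ifit3b, 16 of Ifit3 and 9 of Ifit1. The ciliary level of the tumour-bearing cells, from 500 through 657 to 893, fell in the range of the naïve cells apart from the highest cell.

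**Figure D4:**
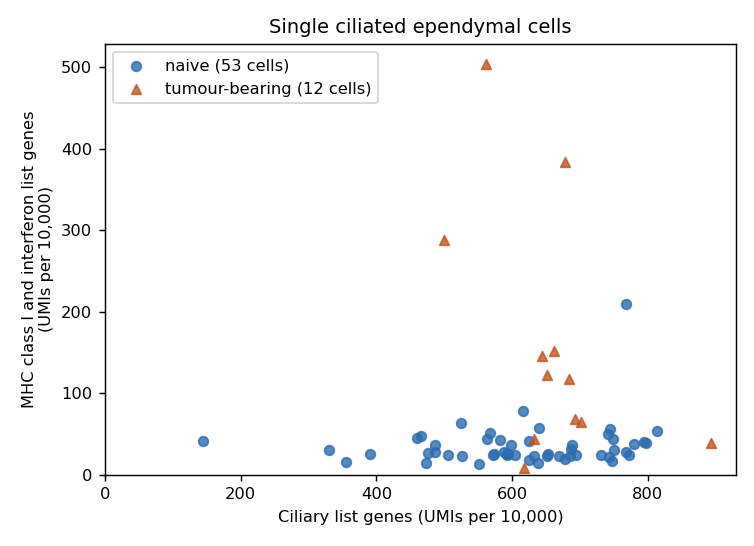
Single ciliated ependymal cells by the UMIs per 10,000 from ciliary list genes (x axis) and from MHC class I and interferon list genes (y axis), with naïve cells as blue circles and tumour-bearing cells as orange triangles. Of the 12 tumour-bearing cells 3 lie above the highest naïve cell at 210. On the x axis the tumour-bearing cells, from 500, fall within the range of the naïve cells (145 to 813) apart from the highest at 893.

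Genes of other cell types were read in the same cells. The macrophage list gave 1 UMI in all 12 tumour-bearing cells, in WT intermediate, with Il1b, Ccr2 and Tgfbi at 0 in all members. In them the lymphocyte list gave 0, the tumour cell list 1, the neuron list 8, the microglia list 9 (in 6 of the 12 cells), the endothelial list 13, the mural list 16 and the oligodendrocyte list 23 UMIs. Each of these lists had a lower level than in the naïve members, where the microglia list was at 520 against 144 CPM and the oligodendrocyte list at 3416 against 369 CPM. The macrophage list was at 6.46 CPM in naïve and 16.03 in tumour-bearing members, and the erythrocyte list at 3.23 and 16.03 (1 UMI each). The fibroblast list was higher as well, at 71.04 CPM (22 UMIs) in naïve and 208 CPM (13 UMIs) in tumour-bearing members, with 182 in WT early, 0 in WT intermediate, 304 in KO intermediate and 299.9 in KO late. It was led by Fbln1, with Dcn, Lum and Slc6a13 at 0 in all members, and its part in the result was not tested. The neuroblast list was at 736 CPM (228 UMIs) in naïve and 1058 CPM (66 UMIs) in tumour-bearing members. Its leading gene was Cd24a, which is also counted among the ciliary genes, and its part was not tested either. Free RNA was read from the 1000 barcodes with the fewest UMIs of the WT early table. These held B2m at 5213 CPM, H2-K1 at 2001 and Iigp1 at 284, where the corresponding barcodes of WT naïve held B2m at 1132 and Iigp1 at 22.3 CPM, so that these genes were also higher in free RNA beside the tumour, and the part of free RNA in the result was not tested. The same barcodes of WT early held the MHC class II list at 5902 CPM and the macrophage list at 1932 CPM, where the members of WT early held 130 and 0 CPM. Fos and Egr1 were at 718 and 354 CPM in those barcodes, where the corresponding barcodes of WT naïve held 275 and 111 CPM, and at 2625 and 1975 CPM in the members of WT early. Median depth was 3359 UMIs in naïve and 4144 in tumour-bearing members.

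Astrocytes and choroid plexus cells of the same libraries were set beside the ependymal cells to ask whether the difference between tumour-bearing and naïve libraries was the same in each class. Both tests rest on WT naïve, KO naïve and WT early with 1 residual degree of freedom, so that WT early stands for the tumour alone and is assumed to vary as the naïve libraries do. The p-values hold no spread between tumour-bearing libraries. Against astrocytes, of which the 3 libraries held 316, 285 and 57, edgeR called 8 genes whose log2 difference, tumour-bearing minus naïve, was higher in ependymal cells (0.133% of 6027) and 1 where it was lower (0.0166%). Among the 8 were Nnat and the immediate early genes Cyr61, Egr1, Fos, Jun, Dusp1 and Btg2. Egr1 was at 42.7, 85.7 and 103 CPM in astrocytes of WT naïve, KO naïve and WT early, where ependymal cells had 87.1, 97.0 and 1975 (log2 difference 3.75 ± 0.63, edgeR, adjusted p = 5.8e-06). Nnat was at 1287, 773 and 396 CPM in astrocytes and at 3475, 3909 and 6394 CPM in ependymal cells (log2 difference 2.25 ± 0.46). The other tumour-bearing libraries, which this test does not hold, went the other way. There Nnat in ependymal cells was at 1228 CPM (WT intermediate), 1367 (KO intermediate) and 3149 (KO late), each below both naïve libraries. None of the MHC class I genes was among the 9. B2m stood at 390 CPM in naïve astrocytes and at 1925 CPM in astrocytes of all tumour-bearing libraries together, of which the test holds only WT early. DESeq2 called 0 of these genes (20 at an unadjusted p under 0.05), and with doublets removed edgeR called 0 (267 at an unadjusted p under 0.05).

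Against choroid plexus cells, of which WT early held 6, edgeR called 6 genes whose log2 difference, tumour-bearing minus naïve, was higher in ependymal cells (0.137% of 4364) and 11 where it was lower (0.252%). The sign does not tell in which class a gene differed. Sparcl1, among the 6, was at 2580, 2735 and 2547 CPM in ependymal cells and had 0 UMIs in choroid plexus cells of WT early, and Enpp2, among the 11, was at 276, 165 and 0 CPM in ependymal cells and at 22135, 23574 and 22197 in choroid plexus cells. Fos was at 84.2, 0 and 2714 CPM in choroid plexus cells, close to its level in ependymal cells of WT early (log2 difference -1.82 ± 0.47, edgeR, adjusted p = 0.0291). Ifitm3 was at 25.6, 16.2 and 978 CPM there and at 591, 543 and 2001 in ependymal cells (log2 difference -3.46 ± 0.53, edgeR, adjusted p = 1.6e-07). Mt1, at 3645, 4045 and 6810 CPM in ependymal cells, was at 231, 364 and 27.6 CPM in choroid plexus cells. Hspa1a, an inducible HSP70, was at 1047 CPM in choroid plexus cells of WT early and at 104 CPM in ependymal cells. DESeq2 called 0 genes (12 at an unadjusted p under 0.05) and edgeR called 0 when the 4 members with genes of another cell type were left out (253 at an unadjusted p under 0.05). It also called 0 when the deepest KO naïve cell was left out, with 216 genes under the same unadjusted level.

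Only in naïve brains did both genotypes have at least 5 members, so KO and WT were compared there with 1 library each and no test. One KO naïve cell held 37509 of the 103101 UMIs of that group, where the deepest WT naïve cell held 25733 of 206604. It was not marked as a doublet and passed no rule for another cell type. Acod1 gave 0 UMIs in all members, so these cells do not check the genotype labels. In all kept cells Acod1 UMIs were counted in libraries labelled KO too (38 in early, 28 in intermediate and 43 in late, beside 185, 21 and 14 in WT), and libraries are named here by their labels. The study reports genotyping of the mice by PCR, and no detectable Acod1 by qPCR in macrophages grown from KO bone marrow. Of 1196 genes with at least 50 UMIs over both, 15 (1.25%) were at least 2-fold higher and 25 (2.09%) at least 2-fold lower in KO. Without the deepest KO naïve cell it was 17 higher and 35 lower of 1017 genes, with 5 of the 15 and 19 of the 25 among them. Among 129 ciliary genes 0 were 2-fold higher and 1, Stk33, was 2-fold lower, their median log2 ratio was -0.02 and their range -1.07 to 0.96. Lower in KO were the myelin genes Ermn, Mag and Mbp and the glial lipocalin gene Apod. Mag and Ermn were seen in 5 cells each and Mbp in 16. Ermn had 98 UMIs in WT and 3 in KO, of which 1 cell held 56, and 3 members passed the oligodendrocyte rule, 2 of them in WT naïve. Hsp90b1, the chaperone of the endoplasmic reticulum, was at 2149 CPM in WT and 1018 CPM in KO over 51 cells (log2 ratio -1.08, exact binomial 95% interval -1.40 to -0.77), and Creld2, of the same compartment, at 232 and 87.3 CPM. Without the deepest cell Hsp90b1 was at 1098 CPM in KO, just short of 2-fold. Higher in KO were Fos (116 and 407 CPM), the noncoding Meg3 (111 and 359), the glutamate transporter gene Slc1a3 (184 and 514), Col6a5 (169 and 572 in 11 cells) and mt-Nd6 (126 and 398). Of the KO UMIs of Col6a5, 39 came from the deepest cell and 20 from the others, and without that cell Col6a5 was at 305 and mt-Nd6 at 213 CPM in KO, so that neither was 2-fold higher. Fos (640 CPM), Meg3 (518) and Slc1a3 (518) remained 2-fold higher without it. With 1 library for each genotype these differences cannot be told apart from differences between libraries.

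**Figure D5:**
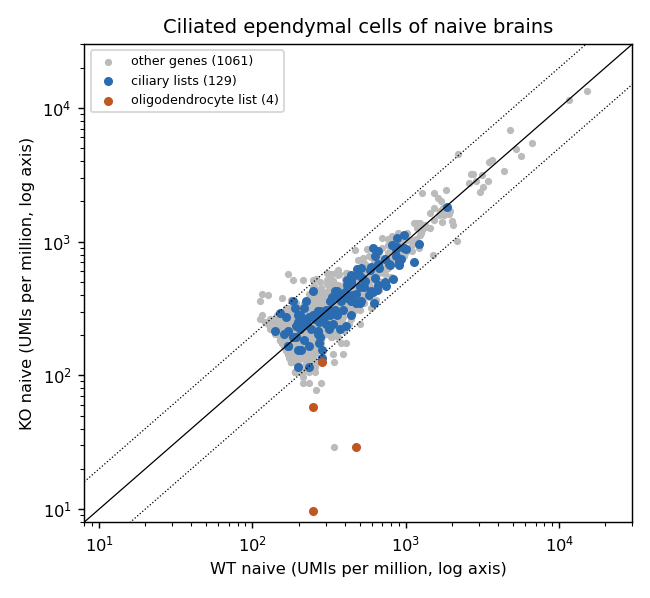
Level of each of 1194 genes in ciliated ependymal cells of WT naïve (x axis) and KO naïve (y axis) in CPM on log axes, with ciliary list genes in blue, oligodendrocyte list genes in orange and other genes in grey. The solid line marks equal levels and the dotted lines a 2-fold difference. Ciliary genes lie along the solid line (median log2 ratio -0.02), whereas Ermn (474 against 29.1 CPM) and other oligodendrocyte genes lie far below it.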

How the data were processed

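Single-cell libraries were made by Drop-seq, which counts the 3′ ends of transcripts on barcoded beads. Per the labels and the methods of the study, reads were converted with bcl2fastq 2.0, aligned with STAR to GRCm38 (mm10) and collapsed with the Drop-seq pipeline, and the authors deposited raw UMI counts of genes for 3000 barcodes in each of 8 libraries. In place of the study's filter of 1000 genes per cell, cells with at least 500 genes among the top 1000 barcodes were kept, so that shallower members were not lost.

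The cell rule, the gene lists and the comparisons were chosen with earlier results of these data known. UMIs were summed over the members of each library. Sums were tested with edgeR 4.0.16 (R 4.3.3; quasi-likelihood test, TMM, filterByExpr) and, as an alternative, with DESeq2 1.42.0, with Benjamini-Hochberg adjustment over all genes tested and a threshold of 0.05. SE is the log2 fold change divided by the root of the F value. At least 5 cells per library were required, which left 1 tumour-bearing library and no test of tumour-bearing against naïve sums, so fits with at least 3 cells and at least 1 cell (added after the cell numbers were seen) were used. The filter behind the 2-fold count in WT early was set after 2 other filters had been tried. It requires the level of 10 UMIs at the depth of WT early (260 CPM), there or in the naïve libraries together, and 191 genes passed only through WT early and 122 only through the naïve libraries. The 2-fold rule with at least 50 UMIs for KO against WT was also set after the cell numbers were seen. Shares were compared by exact permutation tests (scipy 1.17.1). Doublets were scored with Scrublet (scanpy 1.11.5) and, where it marked under 0.5% of cells, the top 5% of scores was removed, as an alternative only. The fits were also run on simulated data, of which no result is reported here.

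Named genes were the rule genes, Dbi, Nnat, Hdc, Kif6 and Acod1, the highest members of each list, the genes outside lists with the largest ratio, and the called genes with the members of response lists. S100b, Sox9, Gfap, Car9, Dynlrb1, Canx, Calr, Creld2 and Spag17 were chosen after their values were seen. Some genes that are counted in the totals are not reported here by name. Alternatives were the marker threshold (20 and 50), the gene minimum (1000), the filters on low counts, the denominator of shares, doublets, cells with genes of another type, the deepest KO naïve cell and leaving out each library.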

Additional observations from a re-analysis of the deposited data

Results flagged for a closer look

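In 4 of 27 groups of libraries examined, 1 library lay far from the others of its group. Chance gives about 1 in 20 for independent groups of libraries alike in depth. These groups share libraries of unlike depth, so that the rate does not apply to them. These were Iigp1 in KO late (2099 CPM), Fos in KO late (3749 CPM), Gbp7 in KO late (2549 CPM) and Cyr61 in WT early (1222 CPM). KO late holds 1 member.

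The edgeR interaction test of WT early against the naïve libraries called 9 genes between ependymal cells and astrocytes, and 0 with DESeq2 or with doublets removed. Its tumour-bearing side is 1 library, which is assumed to vary as the naïve libraries do. As ependymal minus astrocyte log2 difference it was, for 7 of them, 4.53 for Dusp1, 4.35 for Cyr61, 3.92 for Btg2, 3.75 for Egr1, 3.03 for Fos, 2.46 for Jun and 2.25 for Nnat. Among tumour-bearing libraries, Nnat in ependymal cells was above both naïve libraries in WT early only and below both in the others with members.

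Against choroid plexus cells the same test called 17 genes, and 0 with DESeq2, without members with genes of another type or without the deepest KO naïve cell. Among them the log2 difference was 4.31 for Mt1, 2.85 for Zmat2 and 1.72 for Ifi27, and it was -1.82 for Fos, -2.32 for Jun, -2.78 for Rn18s-rs5, -3.43 for Gm42418, -3.46 for Ifitm3, -4.57 for Mdk, -4.65 for Hes1, -5.17 for Hspa1a and -7.94 for Apod. For Cyr61 (8.62), Sparcl1 (7.26), Enpp2 (-7.71) and Dnajb4 (-8.52) 1 of the classes had 0 UMIs in WT early, so that the fitted value depends on the prior count and is no bound.

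Among the barcodes past the first 1000, which were not searched for members, 7 in WT naïve (median 371 UMIs) and 6 in KO naïve (median 623 UMIs) met the marker rule, and 0 did in the other 6 libraries.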

How the results depend on the processing

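The tumour-bearing calls depended on the processing more than their directions did. Of 353 values of called genes under an alternative, 247 stayed past the threshold, 106 did not and 0 reversed. B2m, Egr1, H2-K1 and H2-D1 with at least 3 cells passed in every alternative that could be fitted, and so did Iigp1 with at least 1 cell in the 13 in which it was tested. The 16 calls with at least 3 cells became 7 with DESeq2, 7 with a marker threshold of 20 and 28 with at least 1000 genes per cell. The 17 calls with at least 1 cell became 5 without a filter on low counts, 6 with a marker threshold of 20, 8 with doublets removed and 4 to 12 without 1 library. The 74 genes past 2-fold in WT early became 3319 without a filter, 769 and 29 with at least 20 and 100 UMIs over the 3 libraries (filters tried first), 26 with at least 3 cells per library, and 111 to 171 without 1 naïve library. Of the 769 genes 131 were higher and 638 lower, and of the 29 genes 8 and 21, whereas of the 74 genes 41 were higher and 33 lower. The 40 genes past 2-fold between KO and WT became 9107 without a filter. Against astrocytes the 9 calls became 0 with DESeq2 and with doublets removed, 5 without a filter, 2 with at least 1000 genes per cell and 4 with at least 1 cell. Against choroid plexus cells the 17 calls became 0 with DESeq2, without cells with genes of another type and without the deepest KO naïve cell (tried after its depth was seen), 4 with doublets removed, 6 with at least 3 cells and 2 with at least 1 cell. The causes were not tested. The difference in share ranged from -3.39 to -1.82 percentage points without 1 library and was -4.93 with at least 1000 genes per cell. Foxj1 was seen in 77.8% of members at 2000 UMIs and 86.2% without thinning. The fit with at least 3 cells could not be fitted with doublets removed or without any 1 of its 4 libraries, both class comparisons without WT naïve, KO naïve or WT early, and the choroid plexus comparison with at least 1000 genes. No paired analysis was possible because each group holds 1 library and its number pairs nothing, so that only shares were compared within conditions. The members of tumour-bearing libraries hold 62376 UMIs in all, which limits what was detectable for genes of low level.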
